A study of Mus musculus with 6 samples.

Results

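Semaphorins, plexins and neuropilins form 1 ligand and receptor system, and its genes were compared between knockin (KI) and wild-type (WT) bone marrow macrophages. The members were all genes whose single symbol on the array platform starts with Sema and a digit or with Plxn, together with Nrp1 and Nrp2. The rule found 32 genes among the 18193 genes with a probe set of their own: 20 semaphorins, 9 plexins, 2 neuropilins and the long non-coding RNA Plxna4os1, which lies inside the Plxna4 locus. The members had 79 probe sets in all, and for each gene the brightest 1 over the 6 arrays (by mean log2 intensity) gave its value.

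The series measured bone marrow macrophages of C57BL/6 mice with Affymetrix mouse expression arrays, which label RNA from its 3' end. WT cells and KI cells had all been kept for 24 hours with M-CSF (44 ng/ml), a growth factor of macrophages, and with RANKL (100 ng/ml), the factor that starts osteoclast formation, and no untreated cells were analysed here. The series title places the mutation in the IVVY motif of RANK, the receptor of RANKL. The labels call the animals knockin mutants and do not give the changed residues, the age or the sex. Each genotype had 3 arrays, whose labels do not say whether the replicates came from separate mice, so p-values measure the spread between these samples, which may be technical.

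Semaphorins are secreted or membrane-bound proteins first known as guidance cues of growing axons. They act through plexins, whose cytoplasmic part switches off small GTPases of the Ras and Rap families and reshapes the actin cytoskeleton. Class 3 semaphorins are secreted, and most of them need a neuropilin as co-receptor, while classes 4 to 7 are held on the membrane and mostly bind plexins directly. In bone, Sema4D made by osteoclasts restrains osteoblasts through plexin-B1, Sema3A restrains osteoclast formation through neuropilin-1, and plexin-A1 joins TREM2 and DAP12 in a receptor complex that binds Sema6D and promotes osteoclast formation.

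Median intensities of the 6 arrays lay between 83 and 84.8, and precision is limited by having 3 arrays per genotype. Macrophage markers were present on every array: 7 of 8 (among them Csf1r, Adgre1 and Mertk) were higher in KI cells, and their summed intensity ranged from 89953 to 110320 in WT and from 133859 to 138203 in KI. Osteoclast precursor markers went the other way, with 7 of 8 lower in KI and sums of 70343 to 80776 in WT and 32526 to 36356 in KI. The eighth precursor marker, the calcitonin receptor gene Calcr, lay between 15.7 and 21.6 on all arrays. On the first principal component of the probe sets above the filter on low values, WT 1 stood apart from the other WT arrays (-66.5 against -30.1 and -29.4; KI arrays 54, 32.1 and 39.9). WT 1 also had the lowest macrophage sum and the highest osteoclast precursor sum of the WT arrays. Neutrophil markers summed to between 15715 and 19724 in WT and between 21993 and 43495 in KI, highest on KI 1, with 1 of 7 past the threshold. For 5 of the 7 (Camp, Ngp, Ltf, S100a8 and S100a9) every KI array lay above every WT array, against 20.7% of all genes. Their log2 differences were 0.83 to 1.00 (limma adjusted p of 0.046 to 0.089). Elane and Mpo had overlapping groups. Stromal markers summed to between 2253 and 7194 in WT and between 2366 and 8818 in KI, with 0 of 7 past the threshold by limma; none reached an unadjusted p under 0.05. Endothelial markers summed to between 729 and 920 in WT and between 649 and 680 in KI. Of the 8, Pecam1, Cdh5, Tek, Tie1, Emcn and Cldn5 lay between 18.3 and 67, and Esam between 66.5 and 85.8. Kdr was higher than these, at 470, 533 and 631 in WT and 343, 370 and 382 in KI. Among the 8, Kdr fell and Emcn rose. B cell markers summed to 282 to 426 in WT and 318 to 382 in KI, T and NK cell markers to 401 to 571 and 553 to 698, and dendritic cell markers to 354 to 388 and 371 to 390. Of these last 3 lists, 0 of 5, 0 of 6 and 1 of 5 passed. The part of other cell types in the differences below was not tested. In such bulk samples, fewer cells of a type and less RNA per cell cannot be told apart.

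Of the 32 members, 7 were higher in KI cells, 5 were lower and 20 did not pass the test (limma over all genes, Benjamini-Hochberg adjusted p under 0.05). The genes that rose were Nrp1, Plxnc1, Sema6d, Sema4c, Sema4b, Plxna1 and Plxna4os1, and those that fell were Sema7a, Nrp2, Plxnd1, Plxna2 and Sema4d. Thus 21.9% of members were higher and 15.6% lower. Over all 18193 genes 26.8% passed the test, 11.9% higher and 14.9% lower. The median log2 difference was 0.03 over members and 0.00 over all genes, and the median of its absolute size was 0.25 over members and 0.16 over all genes. Over the genes above the filter on low values, the median absolute size was 0.28. Of the 32 members, 22 were above that filter. At least 2-fold changes past the threshold were seen for Nrp1, Plxnc1, Sema6d and Sema4c upward (12.5% of members against 2.68% of all genes) and for Sema7a and Nrp2 downward (6.25% against 2.59%), together 18.8% of members against 5.27% of all genes. The members with 2-fold changes were all above the filter, and the 2-fold share among genes above it was not computed. The intensities of the groups did not overlap for 15 members (46.9%) and for 45.6% of all genes. KI arrays were all above WT arrays for 8 members (20.7% of all genes) and all below for 7 (24.9% of all genes). After scaling the arrays to the hybridisation spike-in probe sets, 4 members were higher and 7 lower, and after scaling to an older series of spike-in probe sets 2 were higher and 12 lower. Those scalings moved the median of all genes from 0.00 to -0.20 and to -0.52 on the log2 scale. The directions given are therefore relative to the normalization of the authors' values, and a turn of a changed gene under either scaling is given beside that gene. Calls lost with the replicate number as a block in the fit are not listed gene by gene. With that block 1 member was higher and 2 were lower. Other settings named below left out single arrays, or WT 1 and KI 1 together, or took the number in each sample description as a covariate. The labels do not say what that number stands for. It was lower for the WT arrays than for KI 2 and KI 3, so it went partly with genotype, and the 2 cannot be fully told apart. With the covariate the difference was 1.67 for Nrp1 (SE 0.67, against 1.88 and SE 0.45 without it). For Plxnc1 it was 1.91 (SE 0.67, against 1.81 and SE 0.44).

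**Figure D1:**
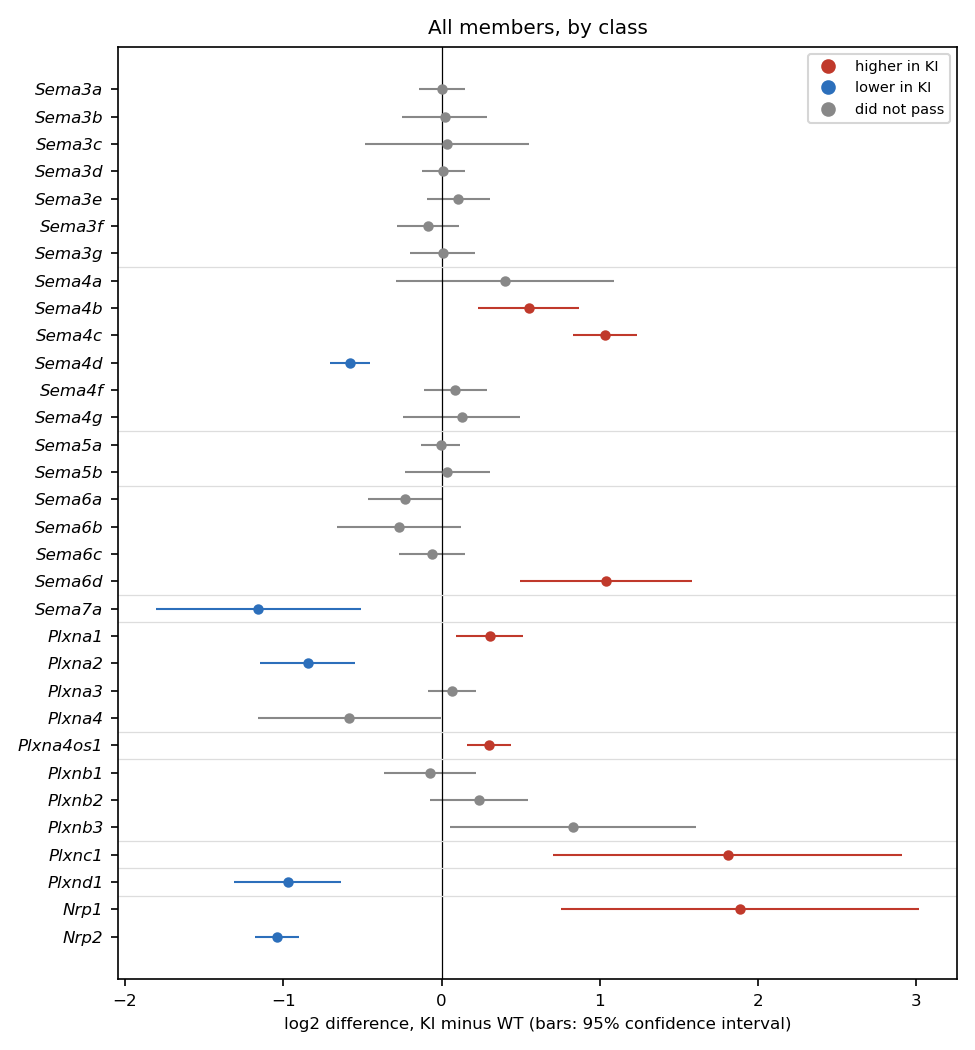
The log2 difference between KI and WT is plotted for all 32 members on the horizontal axis, by class, with 95% confidence intervals from limma. Red points mark the 7 members that were higher in KI, blue points the 5 that were lower and grey points the 20 that did not pass. Nrp1 (1.88) and Plxnc1 (1.81) lie farthest to the right with wide intervals, and the class 3 semaphorins lie around 0.

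A promoter window of 300 bases, from 250 bases before to 50 bases after an annotated start, is shown for the 4 members that changed at least 2-fold and have a single window in the table of RefSeq promoters (build GRCm38.p6). Nrp1 and Plxnc1 rose, and Nrp2 and Sema7a fell. The windows lie at chr8:128358823-128359122 on the plus strand, chr10:94944796-94945095 on the minus strand, chr1:62703067-62703366 on the plus strand and chr9:57939862-57940161 on the plus strand. Capitals mark the core motif of NFAT factors, GGAAA, or its reverse complement TTTCC.
Nrp1: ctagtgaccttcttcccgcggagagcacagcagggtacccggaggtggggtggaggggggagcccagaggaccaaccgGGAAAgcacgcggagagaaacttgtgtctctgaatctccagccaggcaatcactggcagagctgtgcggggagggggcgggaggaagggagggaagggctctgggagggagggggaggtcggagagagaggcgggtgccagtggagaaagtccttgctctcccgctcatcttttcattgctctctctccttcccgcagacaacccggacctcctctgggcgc
Plxnc1: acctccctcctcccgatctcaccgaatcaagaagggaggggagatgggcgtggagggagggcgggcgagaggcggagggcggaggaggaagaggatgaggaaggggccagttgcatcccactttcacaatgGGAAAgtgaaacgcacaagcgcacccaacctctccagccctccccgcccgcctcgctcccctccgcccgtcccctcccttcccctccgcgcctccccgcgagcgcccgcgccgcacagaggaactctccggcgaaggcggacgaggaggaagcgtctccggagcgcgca
Nrp2: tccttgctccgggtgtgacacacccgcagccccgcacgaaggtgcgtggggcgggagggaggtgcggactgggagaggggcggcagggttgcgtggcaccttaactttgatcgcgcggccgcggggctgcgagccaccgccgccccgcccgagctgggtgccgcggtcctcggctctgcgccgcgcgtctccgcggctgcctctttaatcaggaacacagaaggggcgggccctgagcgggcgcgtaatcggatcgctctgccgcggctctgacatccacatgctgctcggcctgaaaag
Sema7a: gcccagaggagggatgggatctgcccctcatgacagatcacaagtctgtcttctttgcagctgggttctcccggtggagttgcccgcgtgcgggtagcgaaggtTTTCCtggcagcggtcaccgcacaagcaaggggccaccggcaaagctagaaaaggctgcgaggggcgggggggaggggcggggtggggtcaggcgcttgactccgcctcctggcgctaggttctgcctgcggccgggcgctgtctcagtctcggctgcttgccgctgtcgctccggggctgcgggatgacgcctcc
The NFAT core occurred once each in the windows of Nrp1, Plxnc1 and Sema7a and not in that of Nrp2. It is short and common: 61.3% of all 32851 windows held it, as did 22 of 37 windows of members (59.5%). None of the 4 windows held the AP-1 motif TGANTCA (7.81% of all windows), the NF-kB consensus motif (8.46%) or the E-box CACGTG (7.15%). All 4 held the GC box GGGCGG, which was in 27 of 37 member windows (73.0%) and in 35.7% of all windows. The median GC content was 63.7% in member windows and 52.7% over all windows. Both strands were searched, and the NFAT core can overlap the NF-kB motif. Windows were listed for 26 of the 32 members, and those of 1 gene can overlap.

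Among the ligands, the secreted class 3 semaphorins gave no difference past the threshold, and 6 of the 7 lay low on every array. Sema3a, which restrains osteoclast formation, had intensities of 26.6, 30.0 and 28.8 on the WT arrays and 27.5, 29.8 and 28.3 on the KI arrays. The groups overlapped, and the log2 difference was 0.00 (95% confidence interval -0.14 to 0.15, adjusted p = 0.99). Sema3b, Sema3c, Sema3d, Sema3e and Sema3g were likewise low, and the 6 genes with Sema3a ranged from 16.5 to 58.9. Their differences lay between 0.00 and 0.11. Sema3f, which signals through neuropilin-2, was read above the low range, at 827, 966 and 872 in WT and 834, 880.1 and 796 in KI, with a difference of -0.09 (interval -0.28 to 0.11, adjusted p = 0.50). That probe set can match several transcripts, and the other probe sets of Sema3f lay between 34.1 and 73.7. Under older spike-in scaling, Sema3a (-0.53, adjusted p = 0.037), Sema3d (-0.52, adjusted p = 0.037) and Sema3g (-0.52, adjusted p = 0.048) turned to lower in KI, close to the shift of all genes there.

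The membrane-bound class 4 semaphorins split. Sema4c, a ligand of plexin-B2, had intensities of 116, 117 and 102 in WT and 236.8, 221.4 and 225.1 in KI. Every KI array lay above every WT array, and the means were 112 ± 8.06 (SD, n = 3) and 228 ± 8.06 (SD, n = 3). The rise was 1.03 on the log2 scale, a 2.04-fold change (adjusted p = 0.0022, SE 0.08). It did not pass under older spike-in scaling (0.50, adjusted p = 0.11). Sema4b was at 224, 179 and 202 in WT and 295, 261 and 330.0 in KI, and the groups did not overlap. It rose by 0.55 (adjusted p = 0.029, SE 0.13). This call was the less steady of the pair: it was lost on leaving out WT 2 (adjusted p = 0.077), WT 3 (0.076), KI 1 (0.084), KI 3 (0.091) or both WT 1 and KI 1 (0.067), with the covariate (0.14) and under spike-in scaling (0.34, adjusted p = 0.11), and older spike-in scaling left 0.02 (adjusted p = 0.95).

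Sema4d, the osteoclast product that restrains osteoblasts, fell. Its intensities were 7529, 8048 and 8207 on the WT arrays and 5149, 5296 and 5478 on the KI arrays. The groups were well separated, with means of 7928 ± 355 (SD, n = 3) and 5308 ± 165 (SD, n = 3). The log2 difference was -0.58 (adjusted p = 0.0027, SE 0.05), so that WT cells had 1.49 times the KI level. It passed in all 17 alternatives run, from -1.11 to -0.39. A second probe set also fell (-0.42, adjusted p = 0.0077 over tested probe sets), and the third lay below the filter on low values. Sema4a, which can bind TIM-2 and plexins, was at 651, 1095 and 1322 in WT and 1490.0, 1201 and 1209 in KI. The WT arrays spread widely and reached into the KI range, and the difference of 0.40 (interval -0.29 to 1.09) did not pass (adjusted p = 0.35). Without WT 1 it was 0.10. Sema4f (0.09, interval -0.11 to 0.29) and Sema4g (0.13, interval -0.24 to 0.50) did not pass either.

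Class 5 semaphorins were low: Sema5a ranged from 20.2 to 23.0 and Sema5b from 52.1 to 66.3, with differences of -0.01 and 0.04 that did not pass. Sema5a passed as lower under spike-in scaling (-0.21, adjusted p = 0.035) and older spike-in scaling (-0.54, adjusted p = 0.025). In class 6, Sema6d rose. Sema6d, a ligand of plexin-A1, was at 93.2, 113 and 132 in WT and 303, 206 and 194 in KI. All KI arrays were above all WT arrays, and KI 1 stood highest. The rise was 1.04 on the log2 scale, a 2.06-fold change (adjusted p = 0.022, SE 0.22). It was seen on 1 of 4 probe sets: the others were below the filter, between 29.9 and 54.9, with differences from -0.20 to 0.13, and with 1 mean per gene the difference was 0.23 (adjusted p = 0.056). The call was also lost on leaving out WT 1 (adjusted p = 0.053), WT 2 (0.064), KI 2 (0.052) or KI 3 (0.052) and under older spike-in scaling (0.51, adjusted p = 0.10). The other class 6 genes had differences of -0.23 (Sema6a), -0.27 (Sema6b) and -0.06 (Sema6c), none past the threshold. For Sema6a every KI array (93.8 to 115) lay below every WT array (119 to 127), and it passed under spike-in scaling (-0.44, adjusted p = 0.047) and older spike-in scaling (-0.76, adjusted p = 0.018), as did Sema6b under the latter (-0.80, adjusted p = 0.017).

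Sema7a, a semaphorin anchored to the membrane by a lipid that binds plexin-C1 and beta-1 integrin, fell. It was at 441, 262 and 246 in WT and 157, 114 and 143 in KI. Every KI array lay below every WT array, and WT 1 was the highest. The means were 316 ± 108 (SD, n = 3) and 138 ± 21.6 (SD, n = 3), a log2 difference of -1.16 (adjusted p = 0.027, SE 0.26). Without WT 1 the difference was -0.89 and passed (adjusted p = 0.020). The call was lost on leaving out WT 2 (adjusted p = 0.053), KI 1 (0.061), KI 2 (0.077), or else KI 3 (0.081), and with the covariate (0.16). Its second probe set, between 19.1 and 28.8, was below the filter and differed by -0.28.

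**Figure D2:**
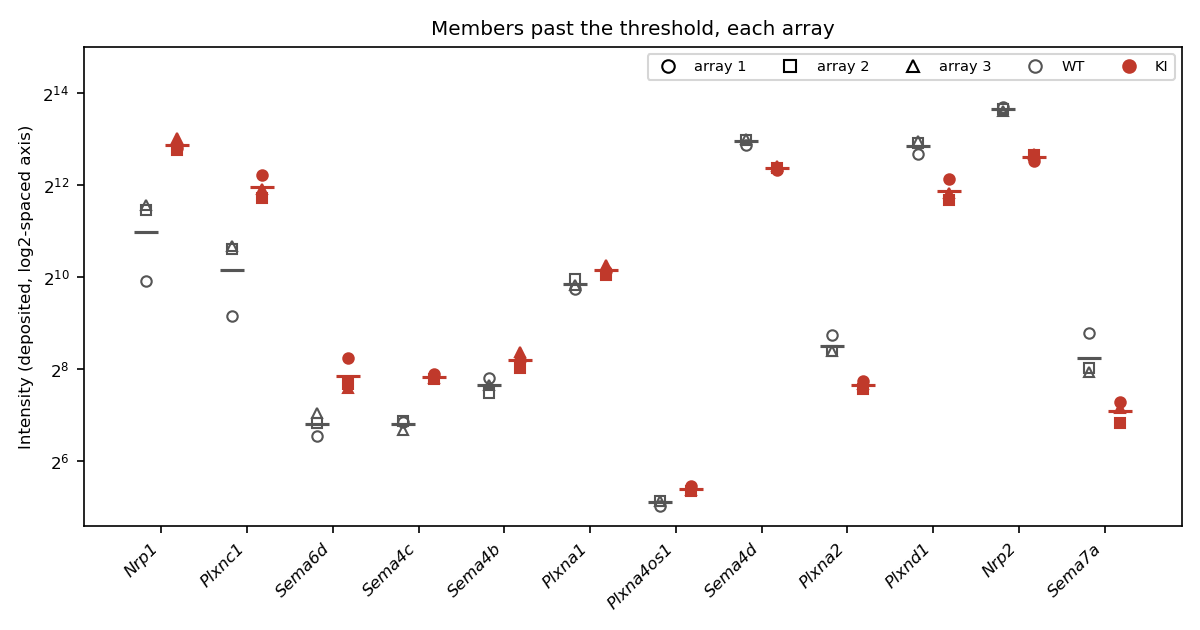
Intensities of the 12 members past the threshold are plotted for each of the 6 arrays on a log2-spaced axis, with open grey symbols for WT, filled red symbols for KI and lines at the group means of log2. No gene has overlapping groups. WT 1 (open circles) lies below WT 2 and WT 3 for Nrp1 and Plxnc1 and above them for Sema7a and Plxna2.

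Among the receptors, plexin-C1 and plexin-D1 went in opposite directions. Plxnc1, whose product is the receptor of Sema7A, was at 567, 1567 and 1640.3 in WT and 4766, 3379 and 3880.2 in KI. The KI arrays were all above the WT arrays, with WT 1 far below the other WT arrays. The means were 1258 ± 600 (SD, n = 3) and 4008 ± 703 (SD, n = 3). The rise was 1.81 on the log2 scale, a 3.499-fold change (adjusted p = 0.034, SE 0.44). Without WT 1 it was 1.31 with a smaller error (adjusted p = 0.0081, SE 0.16), and without WT 1 and KI 1 it was 1.18 (adjusted p = 0.0073). The call was lost on leaving out WT 2 (adjusted p = 0.055), KI 1 (0.10), KI 2 (0.074), or else KI 3 (0.099), and with the covariate (0.13). All 6 probe sets had differences above 0, from 0.21 to 1.81, and the 3 above the filter passed over tested probe sets (adjusted p of 0.0036 to 0.012).

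Plxnd1, whose product binds Sema3E without a neuropilin, was at 6588, 7681 and 7928 in WT and 4473, 3275 and 3624 in KI. The groups did not overlap, and the means were 7399 ± 713 (SD, n = 3) and 3791 ± 616 (SD, n = 3). It fell by 0.97 on the log2 scale (adjusted p = 0.0076, SE 0.14), so that WT had 1.96 times the KI level. The call ended with the covariate (-0.78, adjusted p = 0.054).

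Within the plexin A group, the receptors that class 3 and class 6 semaphorins use, genes moved both ways. Plxna2 was at 427.6, 337.0 and 334.4 in WT and 213.5, 189.9 and 205.0 in KI, and the groups did not overlap. It fell by 0.85 (adjusted p = 0.0080, SE 0.12), and its 4 probe sets all fell, by 0.81 to 1.11. With the covariate the call ended (-0.76, adjusted p = 0.063). Plxna1, the partner of TREM2, was at 851, 993 and 916 in WT and 1125, 1059 and 1222 in KI. The groups lay close without overlapping, and the rise was 0.30 on the log2 scale, a 1.23-fold change (adjusted p = 0.049, SE 0.08). That call needed every single array: the adjusted p was 0.097 without WT 1, 0.056 without WT 2, 0.12 without WT 3, 0.12 without KI 1, 0.068 without KI 2 and 0.15 without KI 3. It was also lost without WT 1 and KI 1 (0.15), with 1 mean per gene (0.29), with the covariate (0.22) and under spike-in scaling (0.10, adjusted p = 0.35). Under older spike-in scaling it turned to -0.23 (adjusted p = 0.45). The other probe set of Plxna1 was below the filter on low values, between 38.2 and 45.6, with a difference of -0.08 and overlapping groups. Plxna3 stayed between 95.7 and 104 (difference 0.07, interval -0.08 to 0.22).

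Plxna4 gave unequal estimates. Its brightest probe set was at 480, 281 and 287 in WT and 201, 239 and 239 in KI. The KI arrays were all lower and WT 1 stood above the other WT arrays, and the difference of -0.58 (interval -1.16 to -0.01) did not pass (adjusted p = 0.12); without WT 1 it was -0.33. The other probe set was at 286, 166 and 179 in WT and 62.5, 87.8 and 94.1 in KI and fell by 1.35 (adjusted p = 0.0057 over tested probe sets, SE 0.24). With 1 mean per gene Plxna4 passed (-0.97, adjusted p = 0.039), and also under older spike-in scaling (-1.11, adjusted p = 0.00068). Plxna4os1, the non-coding RNA of the locus, was low, at 32.5, 35.4 and 35.3 in WT and 44.3, 41.1 and 41.5 in KI. It rose by 0.30 (adjusted p = 0.017, SE 0.06). The call was lost on leaving out KI 3 (adjusted p = 0.056), with the covariate (0.059) and under spike-in scaling (0.09, adjusted p = 0.22), and under older spike-in scaling the difference turned to -0.23 (adjusted p = 0.36). Its probe set was below the filter on low values and was tested only where no filter was applied.

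Plexin B genes, receptors of class 4 semaphorins, did not pass. Plxnb1, the receptor of Sema4D, was at 294, 326 and 313 in WT and 254, 329.7 and 309 in KI. The groups overlapped, with a difference of -0.07 (interval -0.36 to 0.22, adjusted p = 0.70). Plxnb2 was at 5743, 7128 and 7703 in WT and 8774, 7627 and 7733 in KI, overlapping, with a difference of 0.24 (interval -0.07 to 0.55, adjusted p = 0.22). Without WT 1 it was 0.12, and without WT 1 and KI 1 it was 0.05. Plxnb3 was at 93.9, 170.3 and 186 in WT and 327, 210.1 and 244 in KI. These groups did not overlap, but the spread was wide and the difference of 0.83 (interval 0.05 to 1.61) did not pass (adjusted p = 0.11). Without WT 1 it was 0.52, and without WT 1 and KI 1 it was 0.35. That probe set can match several transcripts. The other probe set of Plxnb3 rose by 0.75 (adjusted p = 0.0045 over tested probe sets, SE 0.13), and the gene passed with it in the fit of genes (adjusted p = 0.013).

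The co-receptors moved in opposite directions, and both neuropilins did so on all of their probe sets. Nrp1, the co-receptor of Sema3A and of VEGF-A, was at 973, 2819 and 3018 in WT and 7116, 6993 and 8358 in KI. The KI arrays were all above the WT arrays, and WT 1 was the lowest by far. The means were 2270.0 ± 1127 (SD, n = 3) and 7489 ± 755 (SD, n = 3). The rise was 1.88 on the log2 scale, a 3.69-fold change (adjusted p = 0.032, SE 0.45). Without WT 1 it was 1.36 (adjusted p = 0.0031, SE 0.10), and without WT 1 and KI 1 it was 1.39 (adjusted p = 0.0077). The call was lost on leaving out WT 2 (adjusted p = 0.054), KI 1 (0.089), KI 2 (0.081), or else KI 3 (0.10), and with the covariate (0.17). The 4 probe sets rose by 1.88 to 2.20, with adjusted p of 0.0042 to 0.011 over tested probe sets.

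Nrp2, the co-receptor of Sema3F and of VEGF-C, was at 13227, 12907 and 12422 in WT and 5863, 6407 and 6509 in KI. The groups were far apart and each was tight, with means of 12850.0 ± 405 (SD, n = 3) and 6260.0 ± 347 (SD, n = 3). The fall was 1.04 on the log2 scale (adjusted p = 0.0010, SE 0.06), so that WT had 2.06 times the KI level. The call held in all 17 alternatives run, with differences from -1.57 to -0.97. The other 3 probe sets fell by 1.25 to 1.39.

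**Figure D3:**
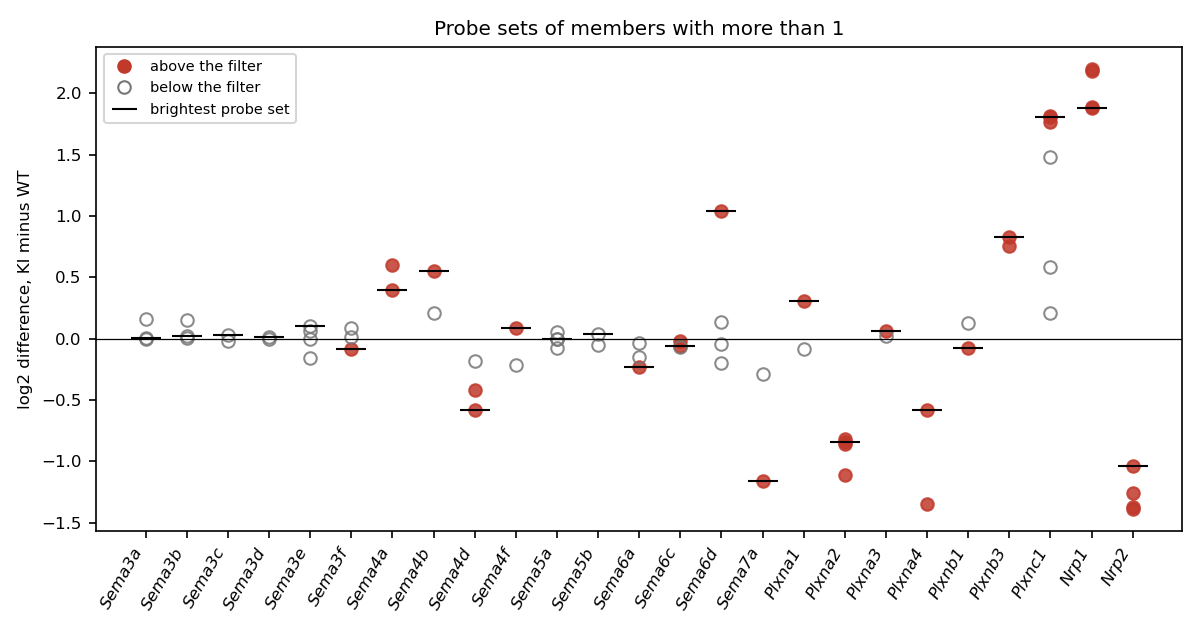
The log2 difference between KI and WT is plotted for each probe set of the members with more than 1, with filled red points for probe sets above the filter on low values, open points for those below it and a black line at the brightest. The 4 probe sets of Nrp1 lie between 1.88 and 2.20 and those of Nrp2 between -1.04 and -1.39, while for Sema6d the brightest (1.04) stands apart from 3 dim ones near 0.

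Over probe sets tested after a filter on low values, 38 of the 79 probe sets of members were kept, of which 12 were higher, 13 lower and 13 did not pass. Of all 22518 tested probe sets 44.9% passed, 19.3% higher and 25.6% lower. The filter kept probe sets whose mean lay above an intensity of 84.7, and 22 of the 32 members were read by a probe set above it. Of those 22, 11 passed in the fit of all genes and 14 had groups that did not overlap, against 40.9% and 64.4% of the 10941 genes above the filter. The 9 low members other than Plxna4os1 lay between 16.5 and 66.3 on every array, and none of them passed by limma at an adjusted p under 0.05. The 95% confidence intervals of their differences lay between -0.48 and 0.55, and at this signal a missed threshold does not show equal levels. Leaving out any 1 array gave 11 to 12 higher and 13 to 14 lower member probe sets. In the fit of genes, the count of higher members was less steady, at 2 without WT 2, 3 without KI 1, 3 without KI 2 and 1 without KI 3. The reason for this was not tested.

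Known ligands and receptors of the system were set side by side. For Sema7A and plexin-C1, the ligand gene fell and the receptor gene rose (-1.16 and 1.81). For Sema6D and plexin-A1 both genes rose (1.04 and 0.30), but the call of Sema6d held in 10 of 17 alternatives and that of Plxna1 in 5 of 17. Plxna1 turned to -0.23 under older spike-in scaling. For Sema4D and plexin-B1 the ligand gene fell (-0.58) and the receptor gene gave -0.07, which did not pass. For Sema4C and plexin-B2 the ligand gene rose (1.03) and the receptor gene gave 0.24 (0.12 without WT 1), which did not pass. For Sema3E and plexin-D1 the ligand gene was low on all arrays, 20.7 to 26.5, and the receptor gene fell (-0.97). Whether the 2 genes of a pair differed from each other in their response was not tested.

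Of 58 other genes of semaphorin signalling on a list fixed for this report, 55 were measured, of which 11 rose, 6 fell and 38 did not pass. Of all genes, 11.9% rose and 14.9% fell. On this list 42 genes were above the filter on low values, and 40.9% of all genes above it passed. The median difference was 0.08 over this list. With spike-in scaling the list had 5 higher and 14 lower genes, and with the older spike-in probe sets 1 higher and 21 lower.

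Of 15 receptors and co-receptors that are no plexin or neuropilin, 2 rose and 3 fell, against 11.9% and 14.9% over all genes. Kdr, which encodes a VEGF receptor, was 1 of the 3 that fell (-0.57, adjusted p = 0.023). The call of Kdr was lost on leaving out WT 2, KI 1, KI 2 or KI 3, with adjusted p from 0.064 to 0.076. Trem2, the partner of plexin-A1 in osteoclast precursors, was at 3098, 4593 and 4660.0 in WT and 13253, 11482 and 12061 in KI. The groups were widely apart, and it rose by 1.60 on the log2 scale (adjusted p = 0.0044, SE 0.17). Its identifier marks a probe set that may detect more than 1 transcript; the brightest of the remaining probe sets gave 0.09 (adjusted p = 0.59). Tyrobp, which encodes DAP12, the signalling adaptor of TREM2, was at 20198, 22659 and 23590 in WT and 27717, 25840 and 26223 in KI. The groups did not overlap, and the rise was 0.27 (adjusted p = 0.040, SE 0.07); it was lost on leaving out WT 2 (adjusted p = 0.085), KI 1 (0.11), KI 2 (0.081), or else KI 3 (0.11), with the covariate (0.12) and under spike-in scaling (0.06, adjusted p = 0.46), and older spike-in scaling turned it to -0.26 (adjusted p = 0.32). Cd72, a receptor of Sema4D on immune cells, fell by 0.71 (adjusted p = 0.022, SE 0.15), from 7353 ± 1306 (SD, n = 3) in WT to 4450.0 ± 409 (SD, n = 3) in KI. The call needed each of WT 2 (adjusted p without it = 0.069), WT 3 (0.055), KI 1 (0.072), KI 2 (0.062) and KI 3 (0.062), and was lost with the covariate (0.057). Mst1r, a receptor tyrosine kinase that can pair with plexin B, fell by 1.12 (adjusted p = 0.015, SE 0.20), which was lost on leaving out KI 1 (0.054) or KI 3 (0.059) and with the covariate (0.076).

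Of 4 genes for growth factors that bind neuropilins, 0 rose and 2 fell in KI cells, against 11.9% and 14.9% over all genes. The 2 that fell were Vegfc and Pgf. Vegfc, which encodes a ligand of neuropilin-2, was at 2087, 1468 and 1478 in WT and 263, 280 and 255 in KI. Pgf, which encodes placental growth factor, was at 633, 1021 and 867 in WT and 135, 131 and 123 in KI. For both genes every KI array was far below every WT array. Vegfc fell by 2.64 on the log2 scale (adjusted p = 0.0012, SE 0.15), Pgf fell by 2.67 (adjusted p = 0.0018, SE 0.18), and each passed in all 17 alternatives run. Vegfa (-0.80, adjusted p = 0.058) and Vegfb (0.33, adjusted p = 0.054) did not pass, although their groups did not overlap. Groups did not overlap for 45.6% of all genes and 64.4% of those above the filter on low values.

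Of 24 genes for partners of the plexin cytoplasmic part, 7 rose and 1 fell, against 11.9% and 14.9% over all genes. Of the 24, 20 were above the filter on low values, and 40.9% of all genes above it passed. Mical1, an enzyme that oxidises actin downstream of plexins, rose by 0.95 (adjusted p = 0.0027, SE 0.08), from 349 ± 23.0 (SD, n = 3) in WT to 675 ± 46.2 (SD, n = 3) in KI. The tyrosine kinases Fes (0.62, adjusted p = 0.0085), Fyn (0.50, adjusted p = 0.020) and Fer (0.29, adjusted p = 0.026) rose, as did Sh3bp1, Ranbp9 and Rras, a target of the plexin GTPase-activating domain. The call of Fyn was lost on leaving out WT 2 (adjusted p = 0.062), WT 3 (0.055), KI 2 (0.065) or KI 3 (0.077), with the covariate (0.13) and under spike-in scaling (0.29, adjusted p = 0.15). Under older spike-in scaling Fyn turned to -0.03 (adjusted p = 0.92) and Fes gave 0.09 (adjusted p = 0.75), while Mical1 gave 0.42 (adjusted p = 0.17). Over the same 17 alternatives the calls of Fer and Sh3bp1 held in 9 each and those of Ranbp9 and Rras in 6 each. Leaving out WT 2, KI 2 or KI 3 ended the calls of all 4 genes (adjusted p from 0.053 to 0.14), as did leaving out KI 1 for Sh3bp1 (0.11), Ranbp9 (0.095) and Rras (0.13), WT 3 for Fer (0.074) and Ranbp9 (0.053), and WT 1 for Ranbp9 (0.091). Under older spike-in scaling Fer turned to -0.24 (adjusted p = 0.43) and Ranbp9 to -0.21 (adjusted p = 0.46), and Sh3bp1 and Rras gave 0.11 and 0.21 without passing. Rnd3, which encodes an atypical small GTPase, fell by 0.66 (adjusted p = 0.017, SE 0.13), lost on leaving out WT 2 (adjusted p = 0.056), KI 1 (0.059) or KI 3 (0.070) and with the covariate (0.084). Of 12 downstream kinases and cytoskeleton proteins, Dpysl2, which encodes the semaphorin mediator CRMP2, rose by 0.85 (adjusted p = 0.0081, SE 0.12), which was lost with the covariate (0.063) and gave 0.32 (adjusted p = 0.25) under older spike-in scaling, and Gsk3b rose by 0.33 (adjusted p = 0.031, SE 0.08). The call of Gsk3b held in 6 of 17 alternatives: it was lost on leaving out any array but KI 2 (adjusted p from 0.053 to 0.10), and older spike-in scaling turned it to -0.20 (adjusted p = 0.49). Of this group 10 did not pass, and over all genes 26.8% passed.

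**Figure D4:**
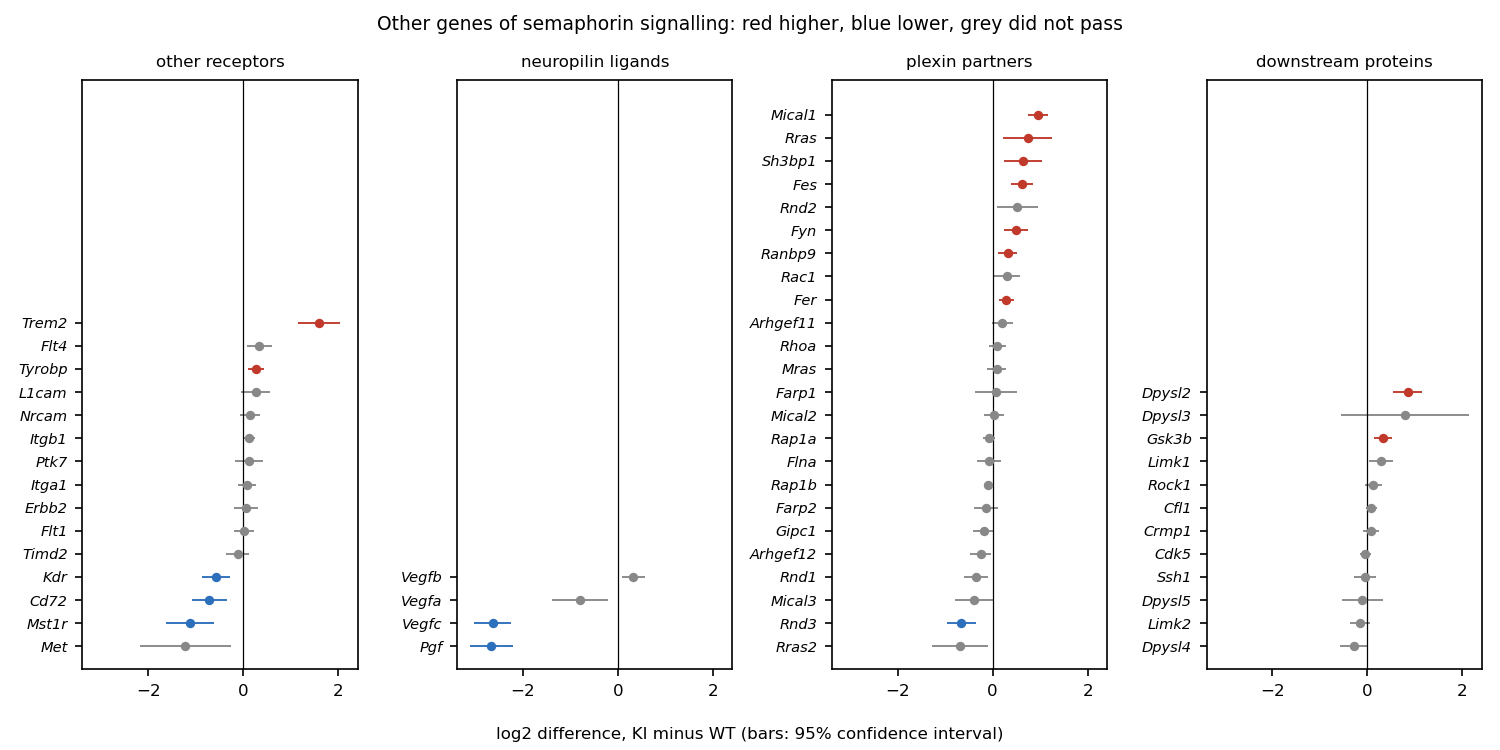
The log2 difference between KI and WT is plotted for the 55 measured genes of the list in 4 panels, with 95% confidence intervals from limma, red where higher, blue where lower and grey where the gene did not pass. Pgf (-2.67) and Vegfc (-2.64) lie farthest to the left and Trem2 (1.60) farthest to the right.

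With the description number as a covariate, 2 members were higher and 2 lower. Of the 12 members past the threshold, Nrp2 and Sema4d passed in all 17 alternatives and Sema4c in 16 of 17. Plxna2 and Plxnd1 passed in 15 of 17, Nrp1, Plxnc1 and Sema7a in 11 of 17, Plxna4os1 in 11 of 16, Sema6d in 10 of 17, Sema4b in 8 of 17 and Plxna1 in 5 of 17. The direction was kept in every alternative run by these genes except Plxna1 and Plxna4os1, which turned under older spike-in scaling.

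**Figure D5:**
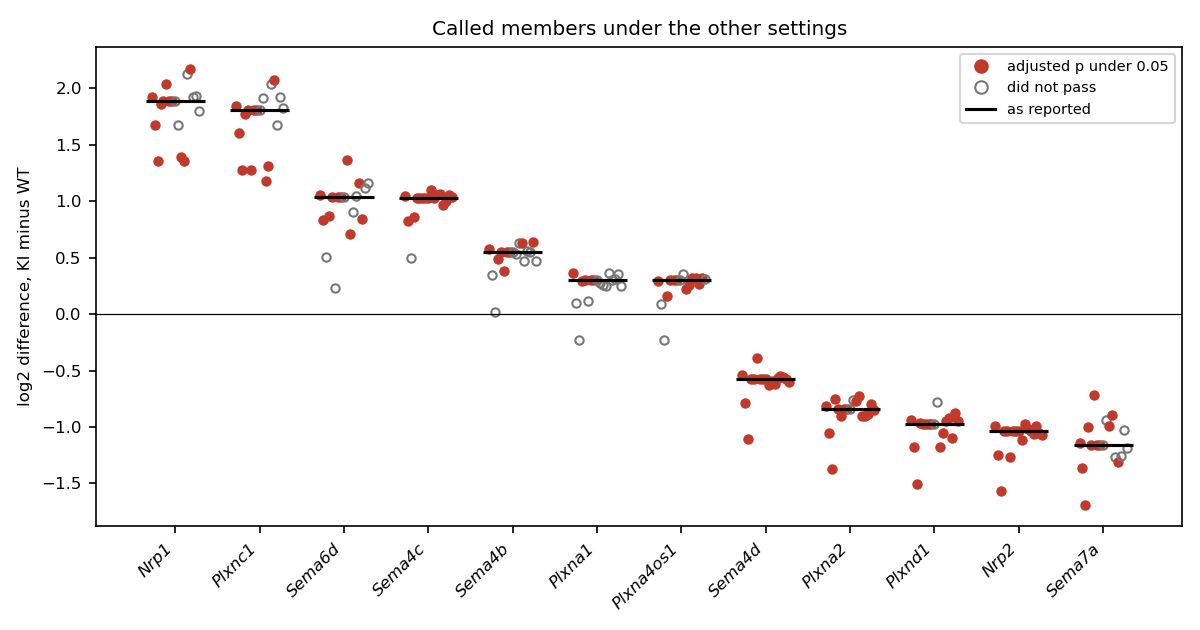
Each point is the log2 difference between KI and WT of 1 of the 12 members past the threshold under 1 alternative setting, filled where the adjusted p was under 0.05 and open where it was not, with a black line at the reported value. Nrp2 and Sema4d have filled points only, while Plxna1 has mostly open points and 1 below 0.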

How the data were processed

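The members, the gene lists and the tests were chosen with earlier results of these data known. The software was Affymetrix Expression Console, per the submitters' processing notes; not given in the sources used here were its version, the summarisation and the scaling steps. The authors' deposited table holds 1 linear intensity for each of 45101 probe sets and 6 arrays; close medians (83 to 84.8) were read as normalization between arrays. Of the probe sets, 64 controls were left out, and 34945 of the others had 1 gene symbol in the platform annotation, 932 several and 9160 none. Intensities were floored at 16 (5.47% of values lay below) and log2 transformed.

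Each of 18193 genes was represented by its brightest probe set and fitted with limma 3.58.1 in R 4.3.3 (eBayes with an intensity trend), KI minus WT, with Benjamini-Hochberg adjustment over all genes. A second fit took 22518 probe sets above the median signal. On simulated arrays of 18193 genes, the fit recovered 41.8% of 67 genes given a log2 change of 0.5. It recovered 73.1% of 67 given 1 and 97% of 66 given 2, and called 1 gene with no change. The changed genes were drawn only from those above the median signal, and noise was independent between arrays and genes. These rates therefore do not cover members of low signal or an array that stands apart, such as WT 1. The naming rule took every member, with values on each array for those past the threshold and for a fixed set with roles in bone, and the 10 pathway genes past the threshold with the smallest p together with Trem2 and Tyrobp; other genes past the threshold are named by count or in passing, as were members given array values for their group order or probe set disagreement, chosen after their values were seen. Symbols of all 32 members matched the RefSeq gene table by identifier. Alternatives were quantile normalization, both spike-in scalings, log2 of the intensity plus 32, the filter on genes, 1 mean per gene, dropping probe sets whose identifiers end in _s_at or _x_at, which may detect more than 1 transcript, no trend, the replicate number as a block, the description number, and leaving out arrays.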

Additional observations from a re-analysis of the deposited data

How the results depend on the processing

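The counts of members were 7 higher and 5 lower. They were 4 higher with spike-in scaling, 2 higher and 12 lower with older spike-in scaling, and 2 higher and 2 lower with the description number as covariate. Leaving out 1 array gave 1 to 5 higher and 4 to 5 lower members. Other pathway genes (11 higher, 6 lower) were 5 and 14 with spike-in scaling, 1 and 21 with older spike-in scaling and 3 and 3 with the covariate, 10 were lower with log2 of the intensity plus 32, and array omission gave 4 to 9 higher and 2 to 6 lower. All genes (2163 higher, 2704 lower) were 1283 and 4953 with spike-in scaling, 421 and 8184 with older spike-in scaling, and 707 and 964 with the covariate; array omission gave 892 to 1992 higher and 1116 to 2387 lower. Member probe sets (12 higher, 13 lower) had 7 higher with older spike-in scaling and 7 higher with the covariate; array omission gave 11 to 12 and 13 to 14. The replicate number as a block, with correlations of same-numbered deviations of -0.40, -0.30 and -0.30, did not pair the samples. In the fit of genes the block gave 1 member higher and 2 lower, and 1 other pathway gene higher and 2 lower. Over all genes it gave 143 higher and 194 lower. Member probe sets with the block were 11 higher and 13 lower. Under older spike-in scaling, 14 members changed sign. For 9 of them neither value passed (-0.51 to -0.13 under that scaling). Among members, and among the 17 pathway genes that passed, the sign also changed for Plxna1 (-0.23), Plxna4os1 (-0.23), Sema3a (-0.53), Sema3d (-0.52), Sema3g (-0.52), Fyn (-0.032) and Tyrobp (-0.26), and for Fer, Gsk3b and Ranbp9. Over 534 refits of single members, 412 kept direction and side of the threshold. These refits pool the 20 members that did not pass with the 12 that did. The share for the 12 alone is not given by that count, and their passes are listed gene by gene above. The cause of these changes was not tested, except that fits with fewer arrays, the block or the covariate have fewer residual degrees of freedom. Signal near the lower end of the scale limits what can be seen for class 3 and 5 semaphorins.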
